A study of Danio rerio with 4 samples.

Results

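Keratins and claudins were followed across the cell types of the zebrafish calvaria, the flat bones of the skull roof with their skin, dermis, vessels and underlying tissue. Members were all genes whose symbol begins with krt and a digit or with cldn. This rule found 57 genes, 20 keratins and 37 claudins, among 39988 genes in the deposited tables, and 56 of them had at least 1 UMI. Cells came from 4 droplet libraries of dissected calvaria, all of the tubingen strain, with 2 libraries per stage and pooled fish in each. Juvenile replicate 1 was made from 20 *cdh1*:mlanYFP fish (ecadYFP in the labels) of 9–11 mm and juvenile replicate 2 from 20 *sp7*:GFP fish of that size, each sorted for live cells without the reporter. Adult replicate 1 was made from 10 *cdh1*:mlanYFP fish of 22–25 mm sorted in the same way, and adult replicate 2 from 10 fish with no reporter, sorted for live cells only. Juvenile replicate 1 and adult replicate 1 were therefore depleted of *cdh1*:mlanYFP+ cells, which are epithelial cells including skin, and juvenile replicate 2 of *sp7*:GFP+ osteoblasts. Replicate numbers follow the order of deposit and pair no samples. The libraries are separate pools of fish, so every n below counts libraries.

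Keratins build the intermediate filaments of epithelial cells, in pairs of a type I and a type II chain. *krt5* is a keratin of stratified skin, whereas *krt8* and the *krt18* genes pair in simple epithelia and are also made by some cells that are not epithelial. Claudins are membrane proteins that span the tight junction and set which ions and solutes pass between neighboring cells. Different claudins serve different barriers: *cldn5a* and *cldn5b* are the zebrafish genes of the brain vessel claudin, and *cldnk* and *cldn19* are claudins of myelinating glia. No nucleotide or protein sequences of the members are shown, because none were used here.

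Cell types were set by marker genes that include no keratin or claudin. A cell entered a gate when at least 2 different genes of that gate's list had a UMI, and cells of several unrelated gates were left out. The filter of the study (more than 200 and fewer than 2500 genes, under 25% mitochondrial UMIs) kept 21311 cells, between 2072 and 8313 per library, with medians of 1878 to 2815 UMIs per cell. The gates then held 425 skin cells, 1841 dermal cells (*pah*, *hgd*, *hpdb*, *fah*), 137 endothelial cells, 191 smooth muscle cells, 407 myelin glia, 323 radial glia and 2412 mesenchyme cells (*prrx1a*, *pdgfra*, *twist1b* and others). Another 3875 cells were in several gates and 3905 in none. Levels are given in CPM, the UMIs of a gene per 1000000 UMIs of the same cells. These are 3′ UMI counts, which do not grow with transcript length, so levels of different genes can be set side by side. Sums of fewer than 10 cells were not used, which leaves 2 juvenile libraries for myelin glia, 3 libraries for radial glia and 2 adult libraries for smooth muscle. Between 14 and 104 cell barcodes were shared by a pair of libraries. In each gate the markers of that gate reached at least 2084 CPM when summed, and no gate lacked more than 1 of its own markers in any library.

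The cells of the skin gate differed between libraries. In juvenile replicate 1 its 57 cells had 0 UMIs of *evpla* and of *icn2*, only 2 cells with *tp63*, and 7915 CPM of *s100z*, against 451 CPM in juvenile replicate 2 and 24.8 CPM in adult replicate 2. In adult replicate 1 its 38 cells had 3823 CPM of *agr2*, 824 CPM of *trpv6* and 978 CPM of *gng13a*, against 99.0 CPM, 0 and 0 in adult replicate 2. *s100z*, *agr2*, *trpv6* and *gng13a* were taken as genes of epithelia other than skin, and *icn2* as a further skin gene. This assignment was not tested, and cells with such genes may also lie within skin. These further genes were chosen after the leading genes of the gates had been seen. In juvenile replicate 1 and adult replicate 1 the name skin therefore stands for cells that passed the gate, whatever their kind of epithelium. All 8 markers of the gate were present in adult replicate 1, where they summed to 7442 CPM. Means over the 4 libraries, which are given for sums and for less abundant members, cover unlike cells. Of the kept cells 57 of 8313 passed the gate in juvenile replicate 1, a share of 0.686% (95% interval by Clopper-Pearson 0.520 to 0.887). The share was 3.53% in juvenile replicate 2 (280 of 7932, 3.13 to 3.96), 1.83% in adult replicate 1 (38 of 2072, 1.30 to 2.51) and 1.67% in adult replicate 2 (50 of 2994, 1.24 to 2.20). The depleted juvenile library was below the other juvenile library, and the intervals of the adult libraries overlapped. Intervals cover counting error only. The median depth of these cells was 1189 UMIs in juvenile replicate 1 and 3156 to 3761 in the other libraries. *cdh1* itself is among the 8 markers of the gate, so the sort removed cells by a gene that also defines them.

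By their means over libraries, summed keratin levels were highest in the skin and dermal gates and summed claudin levels in the skin and myelin gates. Keratins together reached 23863 ± 17313 CPM in skin cells (SD, n = 4), 14123 ± 5766 in dermal cells (n = 4) and 11580 ± 3173 in smooth muscle cells (n = 2). The order was not the same in every library. Skin-gated cells had 5409 CPM of keratins in juvenile replicate 1, 33938 in juvenile replicate 2, 13526 in adult replicate 1 and 42578 in adult replicate 2. Dermal cells had 13969, 16835, 6169.7 and 19517 CPM, so that they were above the skin-gated cells in juvenile replicate 1, whose genes were unlike those in juvenile replicate 2. In adult replicate 1 smooth muscle cells (9337 CPM) and endothelial cells (8028 CPM) were above dermal cells. Endothelial cells had 6601 ± 1914 CPM (n = 4) and mesenchyme 5228 ± 1763 (n = 4), whereas myelin glia had 1423 ± 406 (n = 2) and radial glia 466 ± 98.8 (n = 3). Claudins together reached 7233 ± 2739 CPM in skin cells and 4640.0 ± 1766 in myelin glia, followed by 1448 ± 556 in endothelial cells, 762 ± 118 in radial glia and 320 ± 197 in mesenchyme. Dermal cells had 136 ± 73.1 CPM of claudins and smooth muscle cells 84.5 ± 17.6, below or near the 145 ± 45.9 CPM of immune cells (n = 4). Of the 36 members with at least 20 UMIs in the 7 gates, skin cells had the highest mean level of 11 of 17 keratins and 10 of 19 claudins. The other 6 keratins were led by dermal cells (3), endothelial cells (2) and myelin glia (1), and the other 9 claudins by endothelial cells (3), myelin glia (3), radial glia (2) and mesenchyme (1).

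**Figure D1:**
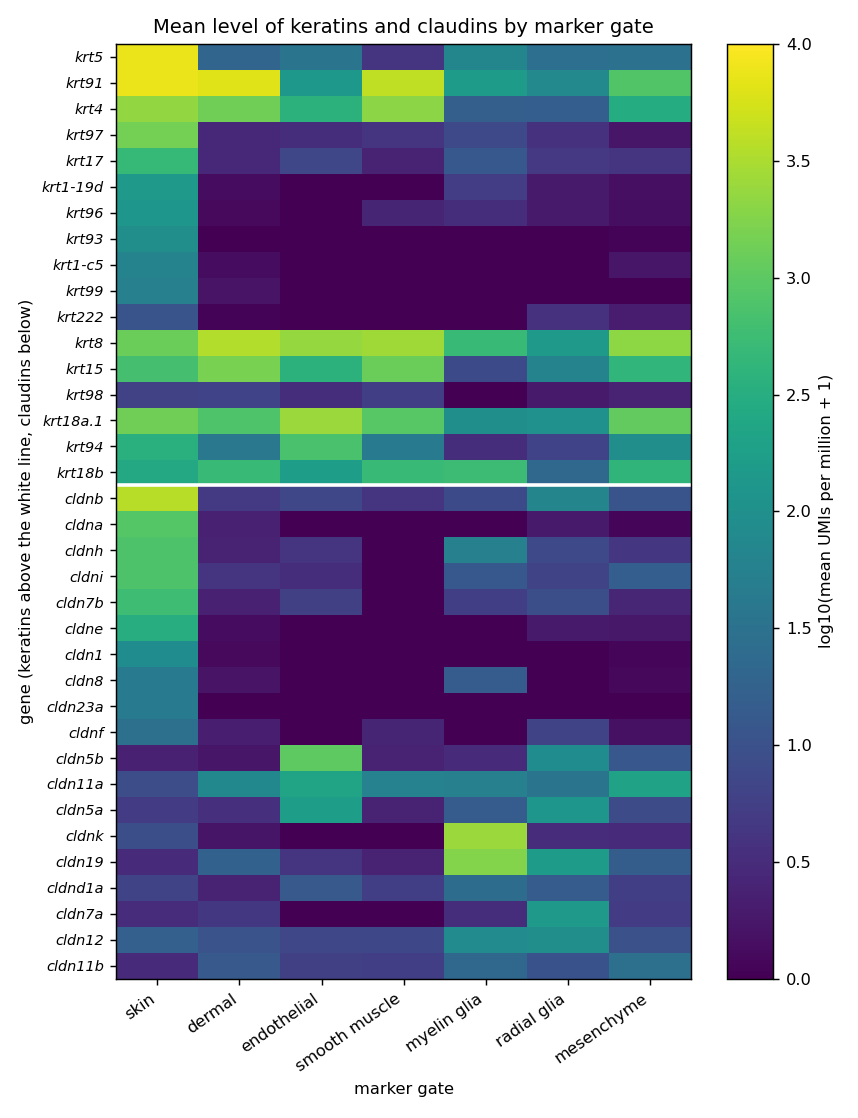
Mean level of the 36 members with at least 20 UMIs in the 7 gates, as log10 of the mean CPM plus 1 over the libraries with at least 10 cells, with gates in columns, keratins above the white line and claudins below it. Most keratins and 10 claudins are brightest in the skin column, *krt8*, *krt15* and *krt91* are also bright in the dermal and smooth muscle columns, and *cldnk* and *cldn19* stand out in myelin glia.

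Skin cells were compared with the mean of the other 6 gates by edgeR's quasi-likelihood test on the summed counts, with the library as a block, and p-values were adjusted by Benjamini-Hochberg over all 6906 genes tested. The same fit served all gates. It tested 31 members (12 keratins and 19 claudins) that passed a filter on low counts, and a member could pass that filter through the very gate in which it is high. In the gates below, the medians include members that passed through another gate. A median under 0 there was partly set in advance and is not read as a lower level of the family. Members with few or 0 UMIs in a gate have poorly determined differences. In skin, 10 of 12 keratins were higher and 0 lower, and 10 of 19 claudins were higher and 3 lower, where 15.1% of all genes were higher and 9.53% lower. The median log2 difference was 3.50 for keratins and 5.27 for claudins, and 0.0037 for all genes. These counts and medians include members that passed the filter through skin cells, so they were partly set in advance and do not measure the families. The same holds for the higher calls in the gates below.

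*krt5* and *krt97* had the largest differences among the keratins. The *krt5* levels were 1169.5 CPM (juvenile replicate 1), 11501 (juvenile replicate 2), 3939.7 (adult replicate 1) and 14007 (adult replicate 2), and the highest value in the other gates was 122 CPM. The difference on the log2 scale was 8.54 ± 0.43 (SE, adjusted p = 9.9e-16, edgeR). *krt97* had 52.2, 1827, 1853 and 2183 CPM in the same order of libraries and at most 9.26 CPM in the other gates (8.78 ± 0.43, adjusted p = 6.84e-16). The lowest library of *krt97* was juvenile replicate 1, whose skin-gated cells lacked *evpla*.

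The other skin keratins differed in where else they were found. *krt91*, with 1013, 11682, 2349 and 15468 CPM in the 4 libraries, and *krt4*, with 908, 4421, 1153 and 2559 CPM, were also abundant in dermal and smooth muscle cells, so that their skin differences were smaller (3.58 ± 0.39 and 3.42 ± 0.42, adjusted p = 1.37e-08 and 1.67e-07, edgeR). *krt17*, *krt96* and *krt1-19d* were scarce outside skin, at no more than 24.5 CPM in any other gate and library, and were uneven between libraries. *krt17* had 1446 CPM in juvenile replicate 2 and 421 in adult replicate 2, but 10.4 in juvenile replicate 1 and 0 in adult replicate 1 (7.12 ± 0.45, adjusted p = 1.14e-13). *krt96* (7.09 ± 0.47, adjusted p = 1.93e-12) ranged from 20.9 to 255 CPM and *krt1-19d* (7.72 ± 0.54, adjusted p = 1.02e-11) from 0 to 240.2 CPM.

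The simple-epithelium pair behaved differently in the skin gate. *krt8* had 1243, 554, 1189 and 2072 CPM in skin cells of juvenile replicate 1, juvenile replicate 2, adult replicate 1 and adult replicate 2, and its difference from the other gates was -0.01 ± 0.29 (adjusted p = 1, edgeR). *krt18b*, the other keratin that did not pass, had 256 ± 133 CPM in skin (SD, n = 4). *krt18a.1* passed with a small difference (1368 ± 1248 CPM, log2 difference 1.18 ± 0.33, adjusted p = 0.007), as did *krt15* (652 ± 497 CPM, 1.69 ± 0.48, adjusted p = 0.00924) and *krt94* (345 ± 587 CPM, 2.59 ± 0.70, adjusted p = 0.00544). *krt94* in skin rested on adult replicate 2 with 1222 CPM, against 138 CPM in juvenile replicate 2, 21.9 in adult replicate 1 and 0 in juvenile replicate 1, and without adult replicate 2 its adjusted p was 0.167. That of *krt18a.1* was then 0.287, and without juvenile replicate 2 that of *krt15* was 0.376 (edgeR). Over 12 alternatives the call of *krt94* was lost in 3 and those of *krt18a.1* and *krt15* in 2 each.

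*cldnb* was the most abundant claudin of skin cells by its mean. It had 1086 CPM in juvenile replicate 1 and 4518, 4450.4 and 4626 CPM in juvenile replicate 2, adult replicate 1 and adult replicate 2, and no more than 159 CPM in any other of the 7 gates (9.21 ± 0.32, adjusted p = 4.14e-19, edgeR). Unlike *krt5*, its level in adult replicate 1 equaled that of the libraries not depleted of *cdh1*:mlanYFP+ cells. *cldna* reached 915, 803 and 1749.9 CPM in juvenile replicate 2, adult replicate 1 and adult replicate 2 and was at 0 in juvenile replicate 1 (10.82 ± 0.47, adjusted p = 4.53e-14). *cldni* ranged from 334 to 1123 CPM (8.41 ± 0.55, adjusted p = 4.37e-13) and *cldn7b* from 262 to 867 CPM (7.91 ± 0.41, adjusted p = 3.95e-15), and both were detected in the skin cells of every library.

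*cldnh* ran the other way between libraries, with 1128 CPM in juvenile replicate 1 and 1590.5 in adult replicate 1, against 324 in juvenile replicate 2 and 53.7 in adult replicate 2 (7.72 ± 0.39, adjusted p = 2.62e-15, edgeR). The remaining skin claudins were less abundant. *cldne* had 311 ± 294 CPM (SD, n = 4), *cldn1* 86.3 ± 109, *cldn8* 45.3 ± 33.8, *cldn23a* 41.5 ± 37.4 and *cldnf* 28.5 ± 24.7, and each was higher in skin than in the other gates (adjusted p between 5e-15 and 3.24e-05). *cldn23a* had 116 UMIs in skin cells and 0 in the other 6 gates, which is at least 325-fold higher with 3 counts as the floor over the group. *cldn19*, *cldn11a* and *cldn5a* were lower in skin cells. *cldn11a* had 3 UMIs in skin against 1660 in the other gates, a ratio of 0.0152 (95% counting interval 0.00313 to 0.0445). Calls of *cldna* and *cldnf* were lost without juvenile replicate 2 (adjusted p = 1 and 0.0683) and that of *cldn1* without adult replicate 2 (adjusted p = 1, edgeR). *cldn19* and *cldn5a* kept their sign in all 12 alternatives, with log2 differences from -5.07 to -2.38 and from -2.49 to -1.02. The call of *cldn19* was lost in 3 of them and that of *cldn5a* in 6. Both were lost without juvenile replicate 1 and without adult replicate 2 (adjusted p between 0.131 and 1, edgeR), and *cldn5a* without juvenile replicate 2 (adjusted p = 0.686). In all, the call of *cldn1* was lost in 2 of 12 alternatives and that of *cldn23a* in 1 of 11 (adjusted p = 0.248).

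**Figure D2:**
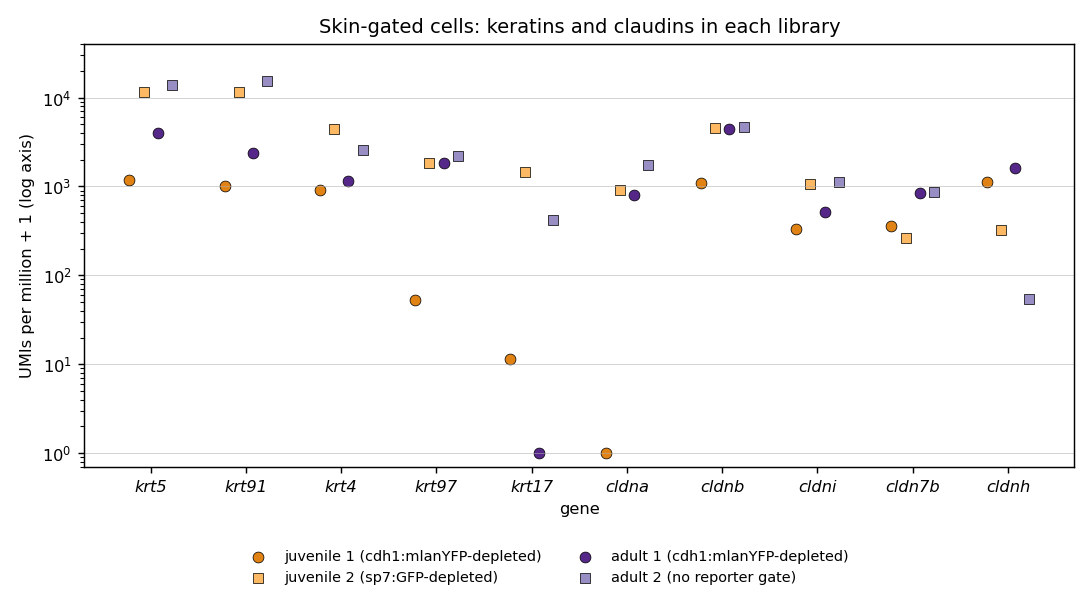
Level of 5 keratins and 5 claudins in the skin-gated cells of each library, in CPM plus 1 on a log axis, with a point per library, circles for the libraries depleted of *cdh1*:mlanYFP+ cells and squares for the others. *krt5* and *krt91* are lower in both circles than in both squares, *cldnh* is higher in both circles, and *cldna* and *krt17* are each at 0 in a depleted library.

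Partner genes of both families were counted in the same fit. Of 18 genes for tight junction partners, 11 were tested, of which 4 were higher (*oclna*, *oclnb*, *tjp3*, *f11r.1*) and 2 lower (*jam3b*, *tjp1a*), with a median log2 difference of 0.283. Occludins are further strand proteins of the tight junction and *tjp3* encodes a scaffold beneath it. Of 12 genes for desmosome partners, which anchor keratin filaments at cell contacts, 10 were tested, 8 were higher (*dspa*, *dsc2l*, *dsg2.1*, *jupa*, *perp*, *pkp1b*, *pkp2*, *pkp3a*) and 1 was lower (*jupb*), with a median of 4.85. Of 9 other intermediate filament genes 2 were tested, and *vim*, the vimentin of mesenchymal cells, was lower. Among all genes of this fit 15.1% were higher and 9.53% lower, with a median of 0.0037. Like the members, a partner could pass the filter on low counts through skin cells, so these counts and medians were partly set in advance.

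Skin cells were divided further by markers of the basal layer (*tp63*, *itga6b*, *itgb4*, *col17a1a*, *col17a1b*) and of the surface layers (*evpla*, *ppl*, *grhl3*, *scel*, *elf3*). Both sub-gates held at least 10 cells in the juvenile libraries, with 12 basal and 10 surface cells in juvenile replicate 1 and 26 and 120 in juvenile replicate 2. The gate of juvenile replicate 1 lacked *evpla* and had few cells with *tp63*. Its layer names rest on the other markers and are uncertain. The adult libraries held 5 and 8 basal cells, too few to sum. Cells with markers of both layers, 94 of 280 in juvenile replicate 2, were left out. *cldni* was higher in the cells gated as basal, with 1069.9 CPM in basal and 0 in surface cells of juvenile replicate 1 and 5778 and 131 CPM in juvenile replicate 2 (5.52 ± 0.80, adjusted p = 2.53e-06, edgeR). *krt18a.1* (468 against 65.7 and 2035 against 295 CPM, 2.75 ± 0.74, adjusted p = 0.00903) and *krt8* (2775 against 394 and 1594 against 428 CPM, 2.28 ± 0.62, adjusted p = 0.00967) were higher in basal cells as well. *cldn1*, with 1040.2 basal and 40.7 surface CPM in juvenile replicate 2, was seen in the same direction.

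In the other direction, *cldnb* had 769 basal and 3089.7 surface CPM in juvenile replicate 1 and 351 and 6578 CPM in juvenile replicate 2 (-3.14 ± 0.64, adjusted p = 0.000445, edgeR). *cldnh* had 0 UMIs in basal cells and 298 in surface cells of the juvenile libraries, at least 24.4-fold lower with a floor of 3 counts over the group. *krt17* had 3 basal against 888 surface UMIs, 72.6-fold lower (95% counting interval 24.8 to 353), and *cldne* 2 against 619, 75.9-fold lower (20.9 to 628). Nearly all of these *krt17* UMIs came from juvenile replicate 2, so its ratio describes that library. The call of *krt17* was lost in all 7 alternatives. In all, 2 of 12 keratins and 1 of 6 claudins tested were higher in basal cells, and 3 keratins and 4 claudins lower, against 3.4% and 7.08% of the 1059 genes tested. The median log2 difference was -0.90 for keratins and -3.51 for claudins, and -0.06 for all genes. As between the gates, a member could pass the filter on low counts through the very sub-gate in which it is high. The calls and medians include such members. These calls were fragile. The 10 called members fell to 1 with library totals in place of TMM factors, 2 with DESeq2 and 0 without a filter on low counts, without the library block, with cells of several gates placed by their marker UMIs, or without adult replicate 2, and to 2 without adult replicate 1. Calls over all genes fell as well, from 111 to 9 with library totals, 19 with DESeq2 and 1 without the filter. They fell to 6 without the block, 0 with cells placed, 0 without adult replicate 2 and 24 without adult replicate 1. The adult libraries entered with their surface cells only. With the library as a block they carry no difference between the layers, so the log2 differences rest on the juvenile libraries. The fit left 1 degree of freedom.

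The skin-gated cells of juvenile replicate 1 and adult replicate 1, both depleted of *cdh1*:mlanYFP+ cells, were compared with those of the other libraries, with stage as a term. The other libraries came from fish without this reporter, and juvenile replicate 2 was depleted of *sp7*:GFP+ cells. The removal therefore cannot be told apart from fish line, the other sort or the pool of fish. Of 7 keratins tested 4 were lower in the depleted libraries and 0 higher, and of 4 claudins 1 was higher and 0 lower, against 1.45% higher and 1.58% lower of 761 genes. Medians on the log2 scale were -1.64 for keratins and -0.36 for claudins, and 0.13 for all genes. *krt91* was lower by 3.05 ± 0.31 on the log2 scale, *krt5* by 2.48 ± 0.31, *krt15* by 2.34 ± 0.69 and *krt4* by 1.64 ± 0.40, and *cldnh* was higher by 3.31 ± 0.70. For *krt91*, *krt5*, *krt15* and *krt4* both depleted libraries lay below both others. The fit left 1 degree of freedom, and the calls depended on the setting. Over 8 alternatives the adjusted p of *krt5* ranged from 8.44e-13 to 0.359 and that of *krt91* from 2.22e-18 to 0.309 (edgeR and DESeq2), and the number of called members was 10 without a filter on low counts, 1 with all deposited barcodes, 1 without the stage term and 0 when cells of several gates were placed by their marker UMIs. Over all genes these settings called 62, 2, 2 and 0 in that order, in place of 23. Fewer skin cells in the gate and less keratin RNA per skin cell cannot be told apart, and the same holds for every sum over a gate.

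In mesenchyme cells the same comparison called 1 of 8 keratins and 0 of 1 claudin, against 0.132% higher and 0.158% lower of 3792 genes. *krt94* had 28.4 CPM in juvenile replicate 1 and 14.6 in adult replicate 1, against 183 in juvenile replicate 2 and 145 in adult replicate 2, and was lower in the depleted libraries (-3.07 ± 0.55, adjusted p = 0.000131, edgeR). Both depleted libraries lay below both others. *krt94* had the same order of libraries in endothelial and skin-gated cells, where this difference was not tested, so the order is not particular to mesenchyme. The mesenchyme fit had as few degrees of freedom as that in skin cells. Without the stage term the adjusted p of *krt94* was 0.995.

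Dermal cells held several keratins at high levels. The 4 markers of this gate are enzymes of phenylalanine and tyrosine breakdown. Of 12 keratins 6 were higher than in the other gates and 0 lower, and of 19 claudins 0 were higher and 3 lower (*cldnb*, *cldn5a*, *cldn5b*), against 19.1% of all genes higher and 2.42% lower. Median log2 differences were 1.11 for keratins and -0.59 for claudins, and 0.18 for all genes. Library totals in place of TMM factors moved the median of all genes to -0.39 and the share of higher calls among all called genes from 88.8% to 48.7%. The lower calls of *cldn5a* and *cldn5b* were lost without juvenile replicate 2 or adult replicate 2, and that of *cldn5b* also without juvenile replicate 1 (adjusted p between 0.0609 and 1, edgeR). Over 12 alternatives they were lost in 5 and 4, respectively.

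*krt91* led the dermal keratins by its mean, with 6625 CPM in juvenile replicate 1, 7761 in juvenile replicate 2, 1807 in adult replicate 1 and 9011 in adult replicate 2 (3.89 ± 0.36, adjusted p = 6.15e-10, edgeR). *krt15* followed with 1563, 1407, 430.1 and 2829 CPM (3.63 ± 0.44, adjusted p = 1.06e-07), and *krt4* with 658, 1703, 522 and 2593 CPM (2.95 ± 0.42, adjusted p = 1.88e-06). Adult replicate 1 was the lowest library for all 3 genes. *krt8* had 3736, 4404, 2259 and 3682 CPM, the highest mean level of *krt8* in any gate (2.40 ± 0.24, adjusted p = 3.48e-09), and *krt18b* 519 ± 198 CPM (1.83 ± 0.28, adjusted p = 6.35e-06).

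The dermal keratins were not those of the skin gate in full. *krt5* had 9.59 CPM in dermal cells of juvenile replicate 1, 41.8 in juvenile replicate 2, 19.3 in adult replicate 1 and 5.72 in adult replicate 2, beside 8.09, 40.2, 20.8 and 14.0 CPM in immune cells. For 100 UMIs of *krt91* there were 90.6 to 168 UMIs of *krt5* in skin cells and 0.0635 to 1.07 in dermal cells. The 8 skin markers summed to between 13.0 and 31.5 CPM in dermal cells with 3 to 5 of them at 0, against 4772 to 7442 CPM in skin cells. With every cell thinned to 1000 UMIs, *krt91* was detected in 69.3% to 80.2% of dermal cells and in 3.98% to 6.19% of immune cells, and without thinning in 83.8% to 91.6% and 10.0% to 14.5%. Thinning left out between 6 and 19 dermal cells and between 5 and 119 immune cells per library, at median depths of 3251 to 4012 and 1818 to 3530.5 UMIs per cell. *krt5* was detected in 0.44% to 2.62% of thinned dermal cells and in 0.844% to 4.08% of immune cells, with overlapping 95% intervals in every library. Overlap of intervals from so few positive cells does not show equal shares, and the source of this *krt5* RNA was not tested.

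Smooth muscle cells had the same leading keratins at 2 libraries. *krt91* had 2978 CPM in adult replicate 1 and 5345 in adult replicate 2, *krt4* 1835 and 2181, *krt15* 1048 and 1479.6, and *krt8* 2310 and 3042 CPM. All 4 were higher than in the other gates (2.91 ± 0.52, 3.12 ± 0.59, 2.86 ± 0.61 and 1.30 ± 0.36, adjusted p = 0.00024, 0.000488, 0.00208 and 0.0206, edgeR). Of 12 keratins 4 were higher and 1 lower (*krt5*, 2 UMIs), and of 19 claudins 0 were higher and 1 lower (*cldn19*, 1 UMI), against 6.47% and 0.623% of all genes. On the log2 scale the medians were 0.27 for keratins and -2.38 for claudins, -2.21 with members at 0 set to their floor, and 0.05 for all genes. Of the 19 claudins tested 10 had 0 UMIs in these cells, so the claudin median rests on poorly determined differences. Leaving out an adult library left 1 library of smooth muscle cells, so the calls of those fits are not given. Over 12 alternatives the calls of *krt8* and *cldn19* were lost in 5 each, that of *krt5* in 4 and that of *krt15* in 1. The log2 difference ranged from 0.75 to 1.69 for *krt8*, -7.7 to -1.68 for *cldn19* and -4.47 to -3.67 for *krt5*. Among the losses were *krt5* without juvenile replicate 2 and *cldn19* without juvenile replicate 1. Mesenchyme markers summed to 2519 CPM in these cells of adult replicate 1 and 1525 in adult replicate 2, and the 4 dermal markers to 285 and 296 CPM. In dermal cells of the same libraries the dermal markers summed to 2730 and 2084 CPM. The part of mesenchyme or dermal cells in the keratin levels was not tested.

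**Figure D3:**
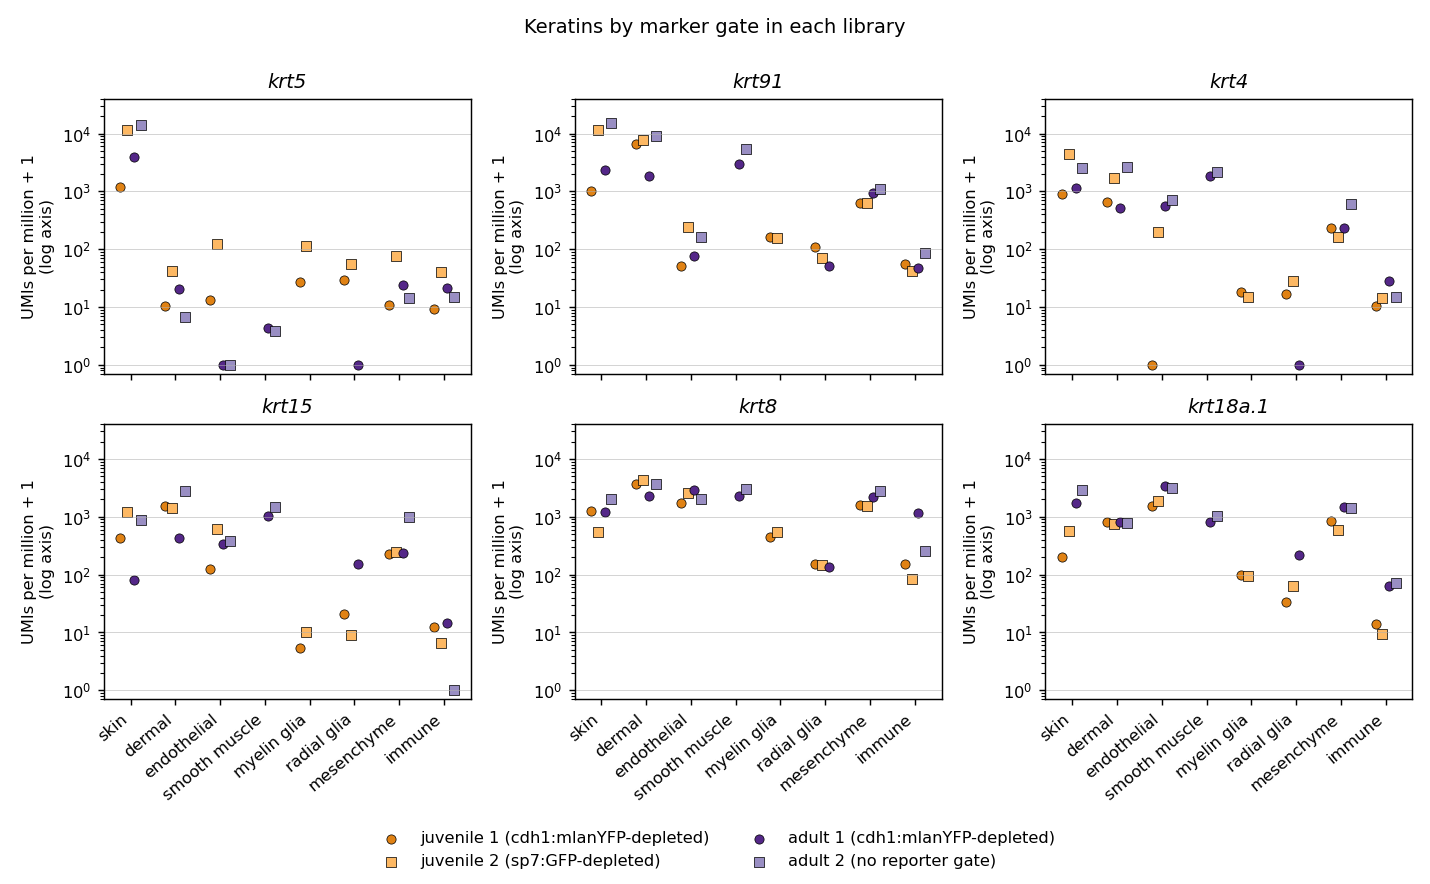
Level of 6 keratins in each gate and library, in CPM plus 1 on a log axis, with a point per library, circles for the libraries depleted of *cdh1*:mlanYFP+ cells, squares for the others, and immune cells for comparison. *krt5* is high only in skin among the gates drawn, whereas *krt91*, *krt4* and *krt15* are high in skin, dermal and smooth muscle cells and *krt8* is high in all gates but the glia and most immune cells.

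Endothelial cells had vessel claudins together with *krt18a.1*. Of 12 keratins 2 were higher and 1 lower, and of 19 claudins 3 were higher and 0 lower, against 8.22% and 5.69% of all genes. Median log2 differences were -1.10 for keratins and -1.64 for claudins, -0.91 and -0.86 with members at 0 set to their floor, and -0.40 for all genes. Of the 19 claudins tested 8 had 0 UMIs in these cells, so the claudin median rests on poorly determined differences. *cldn5b* had 974 CPM in juvenile replicate 1, 489.8 in juvenile replicate 2, 528 in adult replicate 1 and 2034 in adult replicate 2 (7.52 ± 0.49, adjusted p = 5.33e-13, edgeR). *cldn5a* was less abundant, with 111, 441, 92.6 and 61.0 CPM (3.88 ± 0.40, adjusted p = 9.79e-09). *cldn11a* had 98.6, 171, 417 and 183 CPM (2.82 ± 0.69, adjusted p = 0.00466). Without adult replicate 1 the difference of *cldn11a* was 0.91 (adjusted p = 0.351, edgeR), and its call was lost in 2 of 12 alternatives.

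Among keratins, *krt18a.1* reached its highest mean level of any of the 7 gates in endothelial cells, with 1565, 1910.4, 3435 and 3111 CPM (1.94 ± 0.30, adjusted p = 1.97e-05, edgeR). *krt94* was the other endothelial keratin, with 160.2, 1347, 509 and 813 CPM (4.12 ± 0.62, adjusted p = 1.1e-05). *krt8* stood at 2313 ± 526 CPM (SD, n = 4) without passing the test (0.63 ± 0.27, adjusted p = 0.12). *krt18b* did not pass either and pointed lower (-1.09 ± 0.38, adjusted p = 0.0542, edgeR). *krt91* was lower than in the other gates (133 ± 89.2 CPM, -3.79 ± 0.58, adjusted p = 1.47e-05). Skin markers summed to 18.5 to 49.3 CPM in these cells, with 6 or 7 of 8 at 0.

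Myelin glia had a pair of claudins at levels like those of the skin claudins. Both counted libraries are juvenile. *cldnk* had 1638 CPM in juvenile replicate 1 and 3412 in juvenile replicate 2 (9.81 ± 1.13, adjusted p = 4.75e-07, edgeR), and *cldn19* 1458 and 2171 CPM (7.95 ± 0.44, adjusted p = 1.47e-14). *cldnk* had at most 14.6 CPM in any other of the 7 gates. *cldn12* (68.6 and 97.6 CPM, 2.00 ± 0.45, adjusted p = 0.00202) and *cldnh* (51.4 and 55.8 CPM, 2.75 ± 0.72, adjusted p = 0.00777) were higher at much lower levels. Of 19 claudins 5 were higher and 0 lower, and of 12 keratins 0 were higher and 5 lower (*krt4*, *krt8*, *krt15*, *krt18a.1*, *krt91*), against 10.4% and 5.68% of all genes. Median log2 differences were -1.06 for keratins and -0.16 for claudins, and -0.06 for all genes. Leaving out a juvenile library left 1 library of myelin glia, so the calls of those fits are not given. Over 12 alternatives the calls of *cldnh* and *krt8* were lost in 3 each and that of *krt4* in 2. Those of *cldn12*, *krt18a.1* and *cldnk* were lost in 1 each. For *cldnk* this was the fit without adult replicate 1, at a difference of 9.50. *krt18b* had its highest mean level here, with 360.1 and 758 CPM, and did not pass the test (1.12 ± 0.41, adjusted p = 0.0627).

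Radial glia, the neural stem and support cells of the fish brain, held several claudins at low levels and few keratins. *cldn7a* had 205 and 123 CPM in juvenile replicates 1 and 2 and 102 CPM in adult replicate 1, and at most 11.3 CPM in the other gates (6.71 ± 0.58, adjusted p = 1.6e-09, edgeR). *cldn5a* had 113, 192 and 68.1 CPM (3.31 ± 0.38, adjusted p = 8.57e-08), a range that overlaps that of endothelial cells, and *cldn5b* 52.3, 208 and 0 CPM (3.27 ± 0.66, adjusted p = 0.00046). *cldn12* (94.5 ± 47.3 CPM, SD, n = 3, adjusted p = 1.63e-05) and *cldn19* (156 ± 189 CPM, adjusted p = 0.000351) were higher as well, the latter with 374 CPM in adult replicate 1, without which its adjusted p was 0.122. Of 19 claudins 6 were higher and 0 lower, and of 12 keratins 0 were higher and 6 lower, against 13.5% and 7.52% of all genes. The log2 medians were -3.14 for keratins and 0.26 for claudins, and -0.01 for all genes.

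**Figure D4:**
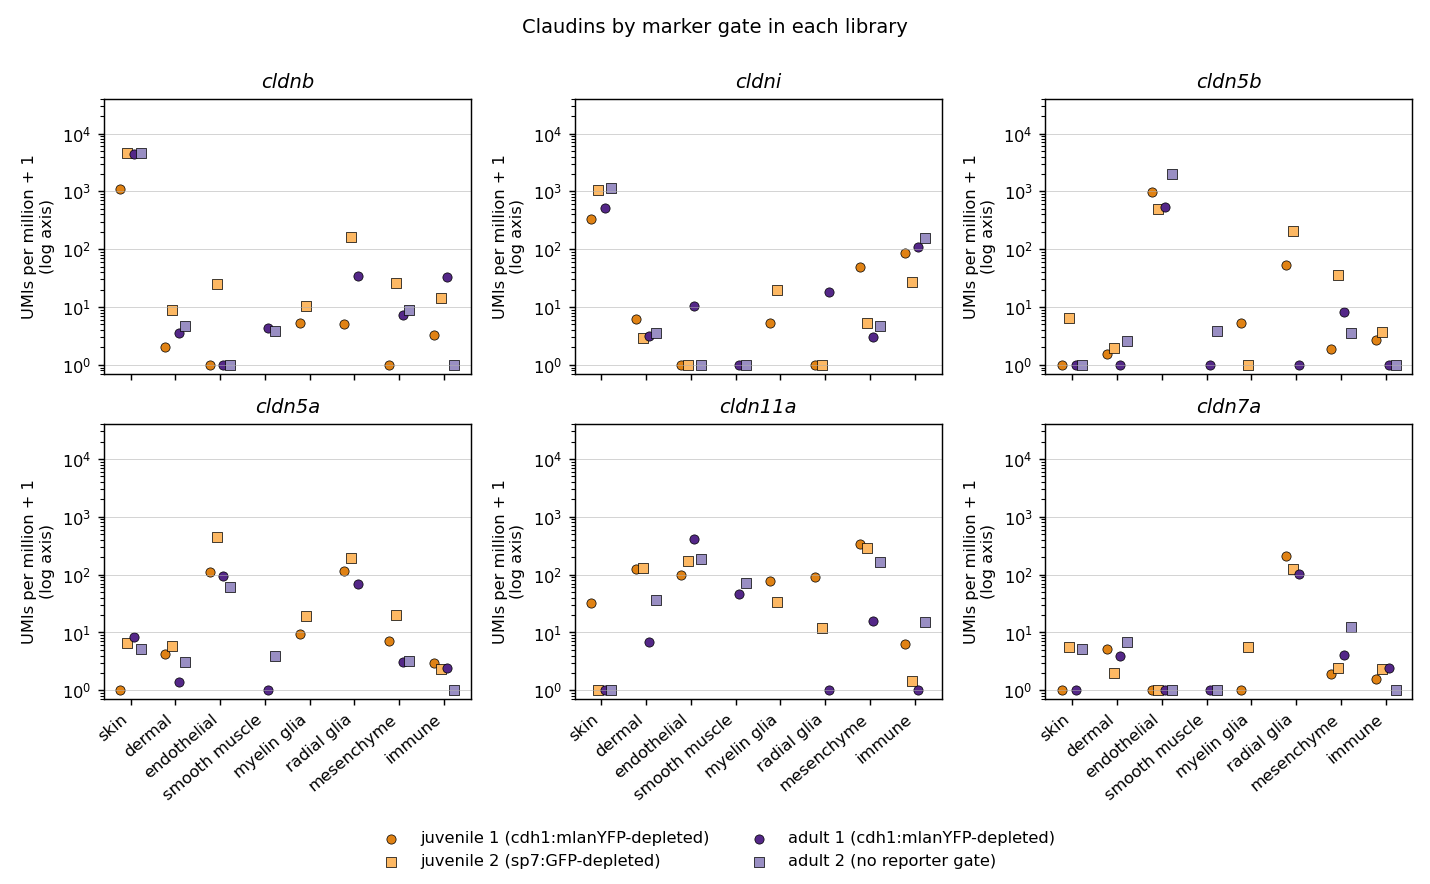
Level of 6 claudins in each gate and library, in CPM plus 1 on a log axis, with a point per library, circles for the libraries depleted of *cdh1*:mlanYFP+ cells, squares for the others, and immune cells for comparison. *cldnb* and *cldni* are highest in skin, *cldn5b* in endothelial cells and *cldn7a* in radial glia, *cldn5a* is high in both of the latter, and *cldn11a* spans endothelial and mesenchyme cells.

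Mesenchyme cells had *krt8*, *krt18a.1* and *krt18b* above the mean of the other gates on the log2 scale, and also 2 claudins. They led none of these keratins. Their mean of *krt8* (2053 CPM) was below dermal (3520), smooth muscle (2676) and endothelial cells (2313). That of *krt18a.1* (1078) was below endothelial (2505) and skin cells (1368), and that of *krt18b* (419) below myelin glia (559), dermal (519) and smooth muscle cells (493). Radial glia had 143, 105 and 21.1 CPM. Of the 2 claudins, *cldn11a* was also called in endothelial cells, at a similar mean level. *krt8* had 1615 CPM in juvenile replicate 1, 1563 in juvenile replicate 2, 2242 in adult replicate 1 and 2792 in adult replicate 2 (1.15 ± 0.25, adjusted p = 0.00102, edgeR). *krt18a.1* had 829, 579.7, 1465 and 1439.8 CPM (1.30 ± 0.31, adjusted p = 0.00215) and *krt18b* 419 ± 116 CPM (SD, n = 4, 1.17 ± 0.29, adjusted p = 0.00321). *cldn11a* had 344, 291, 14.6 and 166 CPM (2.38 ± 0.52, adjusted p = 0.00106), with adult replicate 1 far below the others, and *cldn11b* 33.7, 45.0, 9.41 and 28.8 CPM (2.01 ± 0.42, adjusted p = 0.000579). Of 12 keratins 3 were higher and 1 lower (*krt97*), and of 19 claudins 2 were higher and 0 lower, against 16.1% and 1.03% of all genes. Claudins were thus not called higher more often than genes in general. Median log2 differences were 0.39 for keratins and -0.54 for claudins, and 0.19 for all genes.

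Adult and juvenile cells were compared within 4 gates, and 0 members passed at an adjusted p of 0.05 in any of them by edgeR or by DESeq2. At an unadjusted p under 0.05, edgeR gave 1 of 21 members tested in skin, 1 of 13 in dermal cells, 1 of 9 in endothelial cells and 5 of 12 in mesenchyme. At the same cut 59 genes were higher and 28 lower of all 1714 tested in skin, 536 and 420 of 8160 in dermal cells, 55 and 48 of 709 in endothelial cells, and 545 and 427 of 6683 in mesenchyme. At the adjusted threshold 0% and 0% were higher and lower in adult skin cells, 0.11% and 0.135% in dermal cells, 0% and 0.141% in endothelial cells, and 1.03% and 1.24% in mesenchyme. Each stage has 2 libraries of different sort gates. Leaving out a library gave up to 4 called members: 3 in dermal cells without adult replicate 1 and 4 without adult replicate 2, 4 in mesenchyme without adult replicate 1, 3 without adult replicate 2 and 1 without juvenile replicate 2, 1 in skin without adult replicate 1, and 1 in endothelial cells without juvenile replicate 2. Calls over all genes rose in most of the same fits, from 20 to 430 and 828 in dermal cells without adult replicates 1 and 2, from 152 to 371 and 326 in mesenchyme without them, from 0 to 24 in skin and from 1 to 62 in endothelial cells, and fell to 74 in mesenchyme without juvenile replicate 2.

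*krt18a.1* was ordered by stage in 3 of the 4 gates and passed the test in none. With 2 libraries per stage such an order can easily arise without a stage difference. The gates come from the same 4 libraries, so they are not independent repeats. In mesenchyme both adult libraries (1465 and 1439.8 CPM) lay above both juvenile libraries (829 and 579.7), a log2 difference of 1.47 ± 0.46 (adjusted p = 0.132, edgeR). Over 11 alternatives that adjusted p ranged from 0.042, without adult replicate 1, to 0.739, and in 10 of them it stayed above the threshold. In endothelial cells the adult libraries had 3435 and 3111 CPM and the juvenile ones 1565 and 1910.4 (0.74 ± 0.28, adjusted p = 0.321), and in skin cells 1758 and 2951 against 198 and 563 (2.64 ± 0.81, adjusted p = 0.748). The skin values cover unlike cells, because within each stage the skin-gated cells of the 2 libraries differed in their genes. Dermal cells showed no such order, with 814 and 781 CPM in the adult and 806 and 747 in the juvenile libraries (0.22 ± 0.51, adjusted p = 0.947). A test of whether the stage difference in mesenchyme differed from that in dermal cells, added after these levels had been seen, gave 1.31 ± 0.34 (adjusted p = 0.21). *krt8* differed between the stages by 1.11 ± 0.44 in mesenchyme (adjusted p = 0.247), and its difference between the gates was 1.43 ± 0.35 (adjusted p = 0.189). For *krt15* the difference between the gates was 1.72 ± 0.36 (adjusted p = 0.088) and for *krt91* 1.79 ± 0.52 (adjusted p = 0.305, edgeR). In the test between gates 0 of 12 members passed by edgeR or DESeq2, against 0.041% of 7326 genes in each direction, and 6 had an unadjusted p under 0.05 by edgeR, as did 277 genes in the positive and 228 in the negative direction. Without adult replicate 2 this test passed 6 members and 117 genes in all, in place of 6 genes, and without a filter on low counts 4 members and 67 genes.

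**Figure D5:**
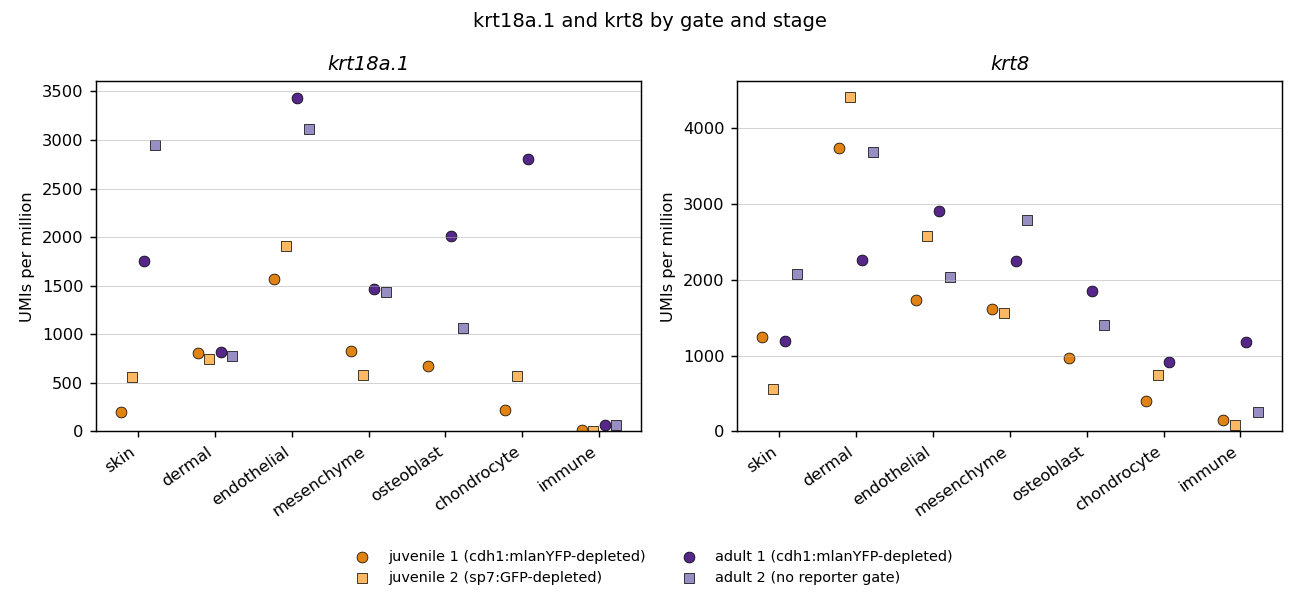
Level of *krt18a.1* and *krt8* in 7 gates, in CPM, with a point per library with at least 10 cells, orange for juvenile and purple for adult, circles for the libraries depleted of *cdh1*:mlanYFP+ cells and squares for the others. The adult points of *krt18a.1* lie above the juvenile points in skin, endothelial cells and mesenchyme and level with them in dermal cells, where all 4 lie between 747 and 814.

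The other members were scarce. Of the 57 genes, 21 had fewer than 20 UMIs in the 7 gates, 3 keratins and 18 claudins. *krt95* had 0 UMIs in all deposited barcodes. The remaining keratins of the 36 that could be ranked were *krt93*, *krt99*, *krt98*, *krt222* and *krt1-c5*, which did not pass the filter on low counts. *krt93* had 359 CPM in skin cells of adult replicate 2, 19.5 in juvenile replicate 2 and 0 in the depleted libraries, and *krt99* had 189.7 CPM in adult replicate 1, 23.4 in juvenile replicate 2 and 0 in the others. By the gene order of RefSeq on another assembly, used for names and neighbors only, 56 members could be placed and 25 lay next to another member, in 8 runs. In 1 of the runs, chosen after its values were seen, the members differed in where they were highest. *krt5*, *krt8*, *krt18a.1* and *krt18a.2* formed this run, in which the mean of *krt5* was highest in skin, that of *krt8* in dermal cells and that of *krt18a.1* in endothelial cells. *krt94* and *krt15* lay in a run with *krt93*, *krt98* and *krt99*, and *cldnh*, *cldnc* and *cldnb* in another, of which *cldnh* and *cldnb* were both highest in skin.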

How the data were processed

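The authors deposited 4 tables of UMI counts (genes by cell barcodes, not normalized), made from 10x Genomics v2 3′ reads with Cell Ranger at default settings on GRCz11 (release 3.1.0 in the file headers, another in the methods). The sources used here do not give the annotation. Seurat 4.1.1 is named in the processing notes. Libraries hold 6986539 to 24854689 UMIs, and deep gates have less counting error.

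Cells were filtered by the limits of the methods and gated by markers. No doublet caller was run, and cells of several unrelated gates were left out, except that mesenchyme with dermal, smooth muscle, osteoblast or chondrocyte markers took the latter. UMIs were summed per library and gate (at least 10 cells) and fitted with edgeR 4.0.16 (filterByExpr, TMM, quasi-likelihood test) in R 4.3.3, with the library as a block between gates. Same-library gates come from the same fish. Alternatives were DESeq2 1.42.0, library totals, no filter, 3 markers, all deposited barcodes, ambiguous cells placed, sums of at least 20 cells, no block, no stage term, and each library left out. The fits were tested on simulated data.

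Members named were the 10 most abundant keratins and 10 most abundant claudins of skin, and for other gates up to 5 with the largest called difference and at least 20 UMIs, up to 5 per direction for the other comparisons, and 12 by textbook role; the others named were chosen after their values were seen, as were the test between gates and the thinned shares. Members, markers and lists were chosen with earlier results of these data known.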

Additional observations from a re-analysis of the deposited data

How the results depend on the processing

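Counts of called members were recomputed under each alternative. DESeq2 called 14 members in dermal cells (9 by edgeR), and placing cells of several gates by their marker UMIs called 5 in myelin glia (10). Over all genes DESeq2 called 1695 in dermal cells (1485 by edgeR), and placing those cells called 1150 in myelin glia (1110). Calls without a library are not given for smooth muscle and myelin glia, where 1 library would be left in some fits. Elsewhere the called members without a library ranged from 18 to 25 in skin, 6 to 11 in dermal cells and 6 to 8 in endothelial cells. They ranged from 10 to 13 in radial glia, 5 to 7 in mesenchyme and 0 to 2 between basal and surface cells. Between the stages they ranged from 0 to 1 in skin, 0 to 4 in dermal cells, 0 to 1 in endothelial cells and 0 to 4 in mesenchyme, where the full data gave 0. Without a filter on low counts the stage comparisons called 1 member in skin, 1 in dermal cells, 1 in endothelial cells and 2 in mesenchyme. Over all genes they then called 67, 489, 35 and 448 in that order, in place of 0, 20, 1 and 152. Basal against surface cells gave 1 (library totals), 2 (DESeq2) and 0 (no filter, cells of several gates placed, no library block) in place of 10. Over all genes these fits called 9, 19, 1, 0 and 6 in that order, in place of 111. Without the replicate block the gate comparisons gave 22 members in skin, 6 in dermal, 5 in endothelial, 5 in smooth muscle, 10 in myelin glia, 11 in radial glia and 5 in mesenchyme. Over all genes they gave 1308 in skin (1701 with the block), 1113 in dermal (1485) and 817 in endothelial cells (961). Smooth muscle gave 501 (490), myelin glia 889 (1110), radial glia 1190 (1451) and mesenchyme 826 (1181). With a library left out, calls over all genes ranged from 1112 to 1866 in skin and 1133 to 1483 in dermal cells. They ranged from 650 to 758 in endothelial cells, 916 to 1438 in radial glia and 842 to 1181 in mesenchyme.

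The depletion comparison gave 10, 1, 0 and 1 skin members without a filter, with all barcodes, with cells of several gates placed and without the stage term, in place of 5, and in mesenchyme 2 with those cells placed and 0 without the stage term, in place of 1. Over all genes these settings called 62, 2, 0 and 2 in skin, in place of 23. In mesenchyme they called 34 and 0, in place of 11. The share of skin cells moved to 0.265%, 0.965% and 1.10% with 3 markers in juvenile replicate 1, adult replicate 1 and adult replicate 2, and to 1.72%, 6.16%, 2.61% and 2.20% with cells of several gates placed in juvenile replicates 1 and 2 and adult replicates 1 and 2.

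Signs changed only among differences that passed no test. In skin *krt8* went from -0.01 to 0.012 with DESeq2, 0.20 without the block, 0.21 without juvenile replicate 2 and 0.06 without adult replicate 1, between -0.34 (without adult replicate 2) and 0.21 over all libraries left out. *krt18b* in skin went from -0.03 to 0.0515 with library totals, 0.0697 with DESeq2, 0.0109 without the block and 0.47 without juvenile replicate 2, with -0.38 without juvenile replicate 1 as the lowest. *krt18a.1* between the stages in dermal cells went from 0.22 to -0.17 with 3 markers and -0.0167 without adult replicate 2, with 0.45 without adult replicate 1 as the highest. The causes were not tested. With library totals the share of higher calls among all called genes was 83.1% in endothelial cells (59.1% with TMM), 76.5% in myelin glia (64.7%), 82.6% in radial glia (64.2%), 82.1% in mesenchyme (94.0%) and 25.0% in adult mesenchyme (45.4%). With DESeq2 it was 50.3% in skin (61.3%), 60.1% in dermal cells (88.8%), 78.3% in endothelial cells, 76.2% in mesenchyme and 65.5% in adult mesenchyme. Basal against surface cells could not be fitted with 3 markers, with sums of 20 cells or without a juvenile library, and the depletion comparisons not without any library.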

Other observations

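Cells outside the 7 gates also held members. In hair cells *krt5* had 367 CPM (juvenile replicate 1, 22 cells), 661 (juvenile replicate 2, 23 cells) and 287 (adult replicate 1, 10 cells), above the 8.09 to 40.2 CPM of immune cells. Hair cells are the mechanosensory cells of the lateral line and inner ear. In them there were 300.0, 1060.0 and 217 UMIs of *krt5* per 100 of *krt91*, against 115, 98.5 and 168 in skin cells of the same libraries. The hair cell ratios rest on 18, 53 and 13 UMIs of *krt5* and only 6, 5 and 6 of *krt91*, so they are imprecise. *cldn8* had 40.8, 37.4 and 177 CPM in the same hair cells, from few UMIs in each library.

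*krt18a.1* in chondrocytes had 224 and 569 CPM in the juvenile libraries and 2804.5 CPM in the 14 cells of adult replicate 1, and in osteoblasts 672 CPM in juvenile replicate 1 and 2011 and 1062 CPM in the adult libraries. *krt8* reached 1178 CPM in immune cells of adult replicate 1, against 151, 83.9 and 253 CPM in juvenile replicate 1, juvenile replicate 2 and adult replicate 2, and *krt18b* 661 CPM there, against 115, 86.0 and 84.2 CPM. *cldni* was present in immune cells of every library, with 83.6, 26.6, 109 and 154 CPM in juvenile replicate 1, juvenile replicate 2, adult replicate 1 and adult replicate 2.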
